A study of Mus musculus with 3 samples.

Results

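The Hox gene clusters were described across 3 stages of mouse osteoclast differentiation in culture, from whole-genome bisulfite sequencing, which reads cytosine methylation base by base. The members were 38 Hox genes of the clusters Hoxa (chromosome 6), Hoxb (chromosome 11), Hoxc (chromosome 15) and Hoxd (chromosome 2), all matched by symbol among 49997 genes of the RefSeq gene table for GRCm38. A region belonged to them if it lay within 5 kb of the RefSeq span of a member gene in any of the 3 tables of CG regions deposited by the authors. This gave 106 of the 547915 listed rows, which fall on 85 of 432641 different positions. Of these positions, 18 lie in Hoxa, 30 in Hoxb, 9 in Hoxc and 28 in Hoxd.

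Marrow came from C57BL/6 mice aged 11 weeks. Floating cells collected after 24 h of culture were grown for 72 h with the macrophage growth factor M-CSF at 50 ng/mL, which gave bone marrow macrophages (BMM). BMM were then given RANKL, the cytokine that induces osteoclasts, at 100 ng/mL together with M-CSF at 30 ng/mL. After 24 h of this treatment the cells are called preosteoclasts (pOC), and after 72 h or longer mature osteoclasts (mOC). Each stage had 1 library, so no difference has a replicate check and every p-value compares the reads of 2 libraries. The libraries hold DNA of whole cultures, in which a changed mix of cells and a changed methylation within cells cannot be told apart, and no expression values were used with which the cell type could be checked.

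Hox genes encode homeodomain transcription factors that give cells their position along the body axis, and within a cluster they are ordered along the DNA as they are used along the body, from anterior genes at the 3′ end to posterior genes at the 5′ end. In marrow, several of them, among them Hoxa9, Hoxa10 and Hoxb4, are known for their action in stem and progenitor cells of the blood. The clusters are also known as targets of Polycomb repression, and they carry microRNA genes of the miR-10 and miR-196 families. Methylation of CG dinucleotides at starts of genes usually goes with silence, while CG in gene bodies and between genes is mostly methylated in mammalian cells.

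A few RefSeq sequences (GRCm38.p6) show where the listed CG lie. Mir10a, between Hoxb4 and Hoxb5 and inside the long RefSeq span of Hoxb3, is the microRNA gene that a listed region overlapped. Its hairpin at chr11:96317165-96317274 (plus strand) is shown with its 3 CG in capitals, followed by the 5p mature microRNAs of the 3 hairpins that lie nearest to listed regions, with the seed (bases 2 to 8) in capitals. The shared seed ACCCUGU joins miR-10a-5p with miR-10b-5p, which comes from chr2:74726074-74726096 (plus strand) in the Hoxd cluster. Mature miR-196b-5p, from chr6:52230129-52230150 (minus strand) next to Hoxa9, has the seed AGGUAGU.
Mir10a hairpin: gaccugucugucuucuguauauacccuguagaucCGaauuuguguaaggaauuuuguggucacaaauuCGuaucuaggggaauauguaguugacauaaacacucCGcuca
miR-10a-5p: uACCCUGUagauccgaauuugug
miR-10b-5p: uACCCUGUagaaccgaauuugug
miR-196b-5p: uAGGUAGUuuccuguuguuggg

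The promoters nearest to a listed region were those of Hoxb4 and Hoxa9, and the 250 bases before each start are shown with CG in capitals. Hoxb4 (chr11:96318017-96318266, plus strand) has 14 CG there and the stretch of Hoxa9 (chr6:52227371-52227620, minus strand) has 3.
Hoxb4 promoter: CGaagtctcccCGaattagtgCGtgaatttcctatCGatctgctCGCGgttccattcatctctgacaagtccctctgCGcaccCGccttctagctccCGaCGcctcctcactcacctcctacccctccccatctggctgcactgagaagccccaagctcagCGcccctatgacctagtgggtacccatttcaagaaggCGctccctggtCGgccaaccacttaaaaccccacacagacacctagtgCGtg
Hoxa9 promoter: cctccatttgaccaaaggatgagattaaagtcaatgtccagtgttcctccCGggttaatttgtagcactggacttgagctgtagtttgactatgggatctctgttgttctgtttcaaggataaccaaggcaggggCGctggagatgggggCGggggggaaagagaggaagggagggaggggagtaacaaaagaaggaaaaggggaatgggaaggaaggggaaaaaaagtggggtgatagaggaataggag

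The authors listed only regions that differed by at least 20 percentage points, with at least 4 cytosines (both strands counted). Each listed region had at least 4 reads per cytosine in each library, and so at least 16 reads. Levels are methylated reads as a percentage of all reads, summed over the cytosines of a region, with exact Clopper-Pearson 95% intervals. A read covering several cytosines enters several times, so the intervals are too narrow, the p-values too small, and neither covers more than counting error. Summed in this way, Hox regions held 16 to 271 reads in pOC or BMM, with medians of 45 in pOC and 49.5 in BMM. The depth was much lower, with medians of 5.66 reads per cytosine in pOC and 5.79 in BMM. A position that is not listed may differ by less than 20 points or have too few reads, and the tables do not tell these apart.

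All 46 Hox regions listed for pOC against BMM were lower in pOC, and 0 were higher. Taken as 3 of 46, a count of 0 still allows a share of up to 6.52%. That limit is for independent regions, and neighbouring regions read from the same 2 libraries are not independent. Of all regions in that table, 92.9% were lower and 7.06% higher, so this direction is near the background. The median level over the 46 regions was 42.2% in pOC and 77.0% in BMM, and the median difference was 31.2 points (20.4 to 63.4), against 29.3 points over the whole table. Fisher's exact test (two-sided) gave an adjusted p of 0.05 or less, with Benjamini-Hochberg adjustment over the whole table, at all 46, as at 91.3% of all regions in the table. Since the table holds regions already chosen for their difference, this p describes them and is no independent support. A score test with each read counted once per strand and region was approximated by scaling the counts to the mean reads per cytosine of each strand. Where reads span only part of a region, this counts too few of them. In this test 9 of the 46 (19.6%) had an unadjusted p of 0.05 or less, against 27.2% of the table. Of the 9, 8 lay in Hoxb and 1 in Hoxd.

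The clusters differed in the levels at which their listed regions lay. Hoxb regions were the most methylated in BMM, with a median of 54.5% in pOC and 92.9% in BMM over 15 regions, and 9 of the 15 were above 90% in BMM. The 11 Hoxa regions had medians of 56.7% in pOC and 83.1% in BMM. Hoxd regions were lower in both libraries, at 29.6% in pOC and 65.7% in BMM over 15 regions. The 5 Hoxc regions were lower still, at 18.5% in pOC and 46.0% in BMM, and the highest of them reached 58.5% in BMM. Medians over the whole table were 48.6% in pOC and 80.0% in BMM. These differences between clusters are a description, with no test.

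**Figure D1:**
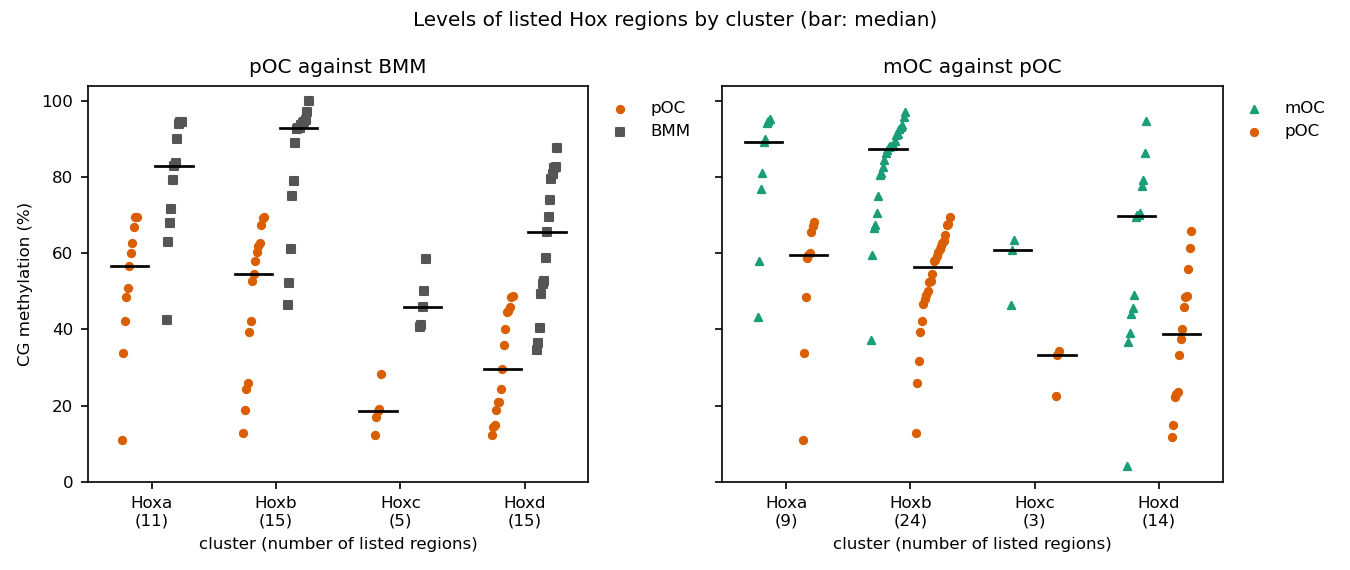
CG methylation (%) of each listed Hox region by cluster, for pOC against BMM (left panel) and mOC against pOC (right panel), with 1 point per region and library and a bar at the median. In the left panel the medians of Hoxc and Hoxd lie below those of Hoxa and Hoxb in both libraries, with BMM medians of 46.0% for Hoxc and 92.9% for Hoxb.

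Listed regions were spread unevenly. Per 100 kb of the windows around the genes, pOC against BMM listed 10.4 regions in Hoxa, 12.8 in Hoxb, 4.18 in Hoxc and 14.7 in Hoxd. The value was 10.3 over all Hox windows and 13 over the same windows around all protein-coding genes. For mOC against pOC it was 8.54 in Hoxa, 20.4 in Hoxb, 2.51 in Hoxc and 13.7 in Hoxd, against 11.2 both over all Hox windows and over protein-coding genes. For mOC against BMM it was 1.90 in Hoxa, 1.70 in Hoxb, 0.835 in Hoxc and 4.89 in Hoxd. That compares with 2.25 over all Hox windows and 3.16 over protein-coding genes. These values rest on few regions, 1 in Hoxc and 5 in Hoxd. Hoxc had the fewest listed regions per length in every comparison, and Hoxb had the most for mOC against pOC. With at least 30 reads in each library, mOC against pOC kept 6 regions in Hoxa, 14 in Hoxb, 0 in Hoxc and 6 in Hoxd. In the same order of clusters, mOC against BMM kept 1, 2, 0 and 1, and pOC against BMM kept 10, 10, 4 and 10.

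**Figure D2:**
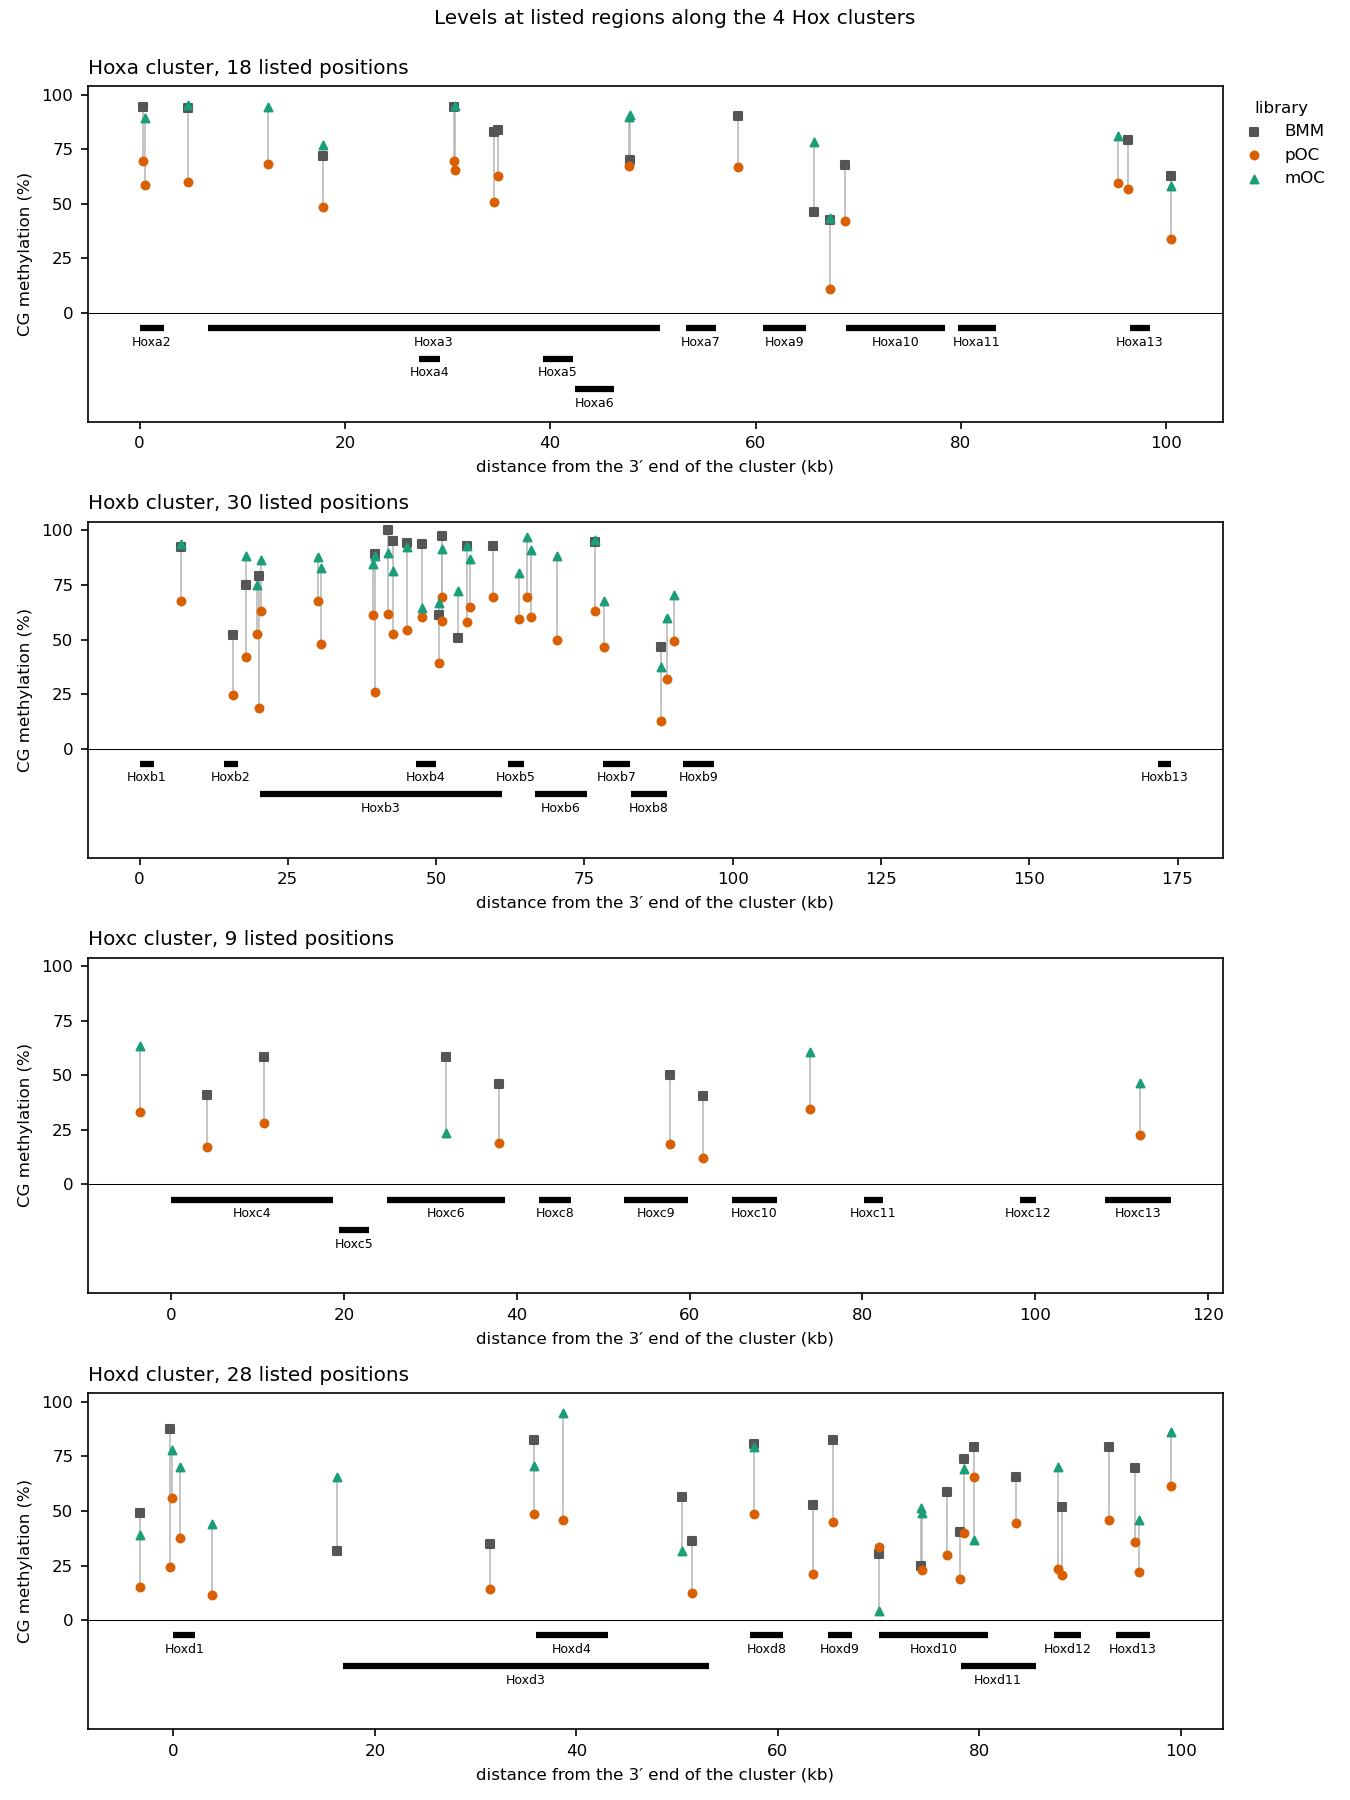
CG methylation (%) at every listed Hox position against its distance (kb) from the 3′ end of the cluster, with 1 panel per cluster, BMM as squares, pOC as circles and mOC as triangles. Thin lines join the levels of 1 position and black bars mark RefSeq gene spans. Of the positions with a pOC level, pOC is the lowest point at all except 2 in Hoxd10, and no position is listed between Hoxb9 and Hoxb13, a stretch that lies mostly outside the 5 kb windows.

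Counted by gene, 31 of 38 Hox genes (81.6%) had a region within 5 kb for pOC against BMM, against 82% of all protein-coding genes and 76.5% of those no longer than the longest Hox gene. For mOC against pOC it was 28 of 38 (73.7%), where the shares were again 82% and 76.5%. For mOC against BMM it was 11 of 38 (28.9%), against 57.2% and 45.7%. A region near several genes counts for each. No table listed a region for Hoxa11, which shapes the forearm and the kidney, Hoxb13, a gene of the prostate and tail end, Hoxc5, Hoxc11 or Hoxc12.

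Hoxb3, which patterns the hindbrain, had the most regions: 12 between pOC and BMM, 2 between mOC and BMM, and 17 between mOC and pOC. It was followed by Hoxb4, known for expanding blood stem cells when overexpressed, with 13 over the 3 tables, and Hoxd10, a limb and motor neuron gene, with 12. The RefSeq spans of Hoxa3 (44009 bp), Hoxb3 (40830 bp) and Hoxd3 (36279 bp) run over the transcripts of neighbouring Hox genes, so a region assigned to them can lie nearer to the start of a neighbour. Exon and intron were not assigned, since the annotation used has gene spans only.

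**Figure D3:**
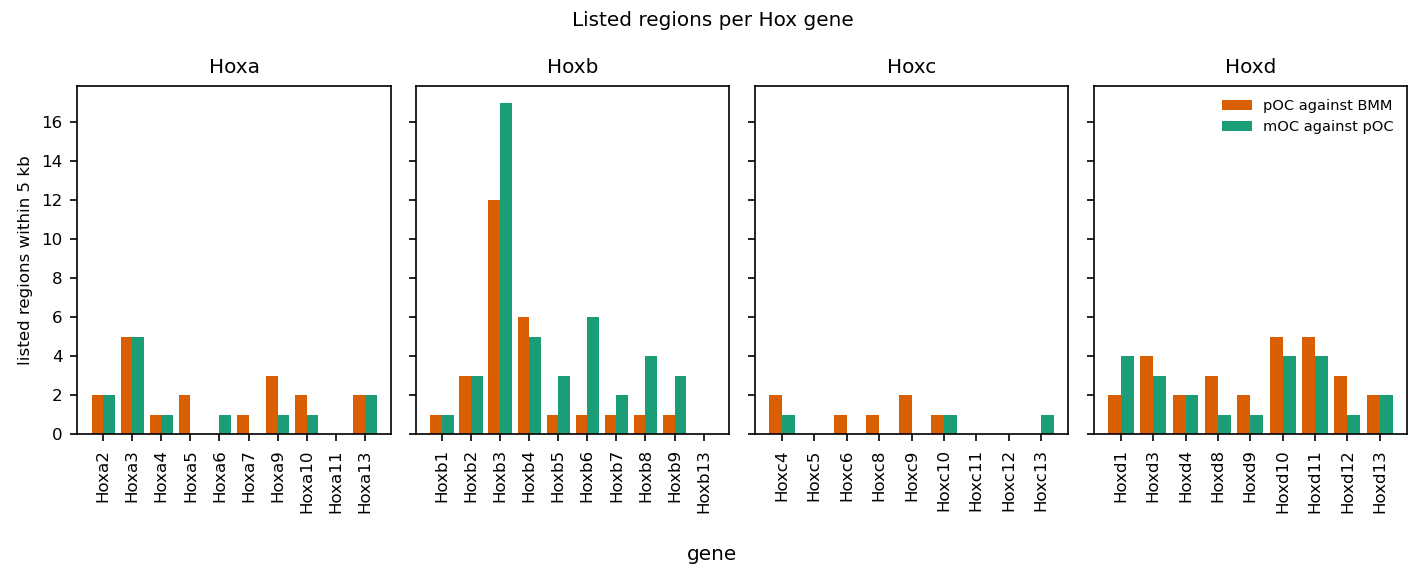
Number of listed regions within 5 kb of each Hox gene for pOC against BMM and mOC against pOC, in 4 panels with genes from the 3′ to the 5′ end of each cluster. Hoxb3 has the tallest bars, 12 and 17 regions, and Hoxa11, Hoxb13, Hoxc5, Hoxc11 and Hoxc12 have none.

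In Hoxb, the region of greatest difference lay inside the Hoxb3 span at chr11:96328402-96328601 (10 cytosines), 10135 bp downstream of the RefSeq start of Hoxb4. There 89.1% of 101 reads were methylated in BMM (81.3 to 94.4), 25.9% of 108 in pOC (18.0 to 35.2) and 88.2% of 93 in mOC (79.8 to 93.9). Only the pOC library was low, and its interval did not meet those of the other libraries. The difference was 63.2 points for pOC against BMM (Newcombe 95% interval 51.4 to 71.9; Fisher's exact test, adjusted p = 6.7e-18) and 62.2 points for mOC against pOC (50.1 to 71.2; adjusted p = 3.8e-16). When each read counted once per strand and region, the score test gave unadjusted p-values of 3.8e-05 for pOC against BMM and 7.7e-05 for mOC against pOC.

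Further along Hoxb3, the region chr11:96326202-96326401 (16 cytosines) had 100% of 75 reads methylated in BMM (95.2 to 100), 61.9% of 126 in pOC (52.8 to 70.4) and 89.6% of 125 in mOC (82.9 to 94.3), which thus lay between the other libraries. Next to it, chr11:96325402-96325601 had 95% of 20 reads in BMM, 52.6% of 19 in pOC and 81.2% of 16 in mOC. At chr11:96323002-96323201 the levels were 94.3% of 35 reads in BMM, 54.5% of 33 in pOC and 92.6% of 27 in mOC. At both, pOC was the lowest library and mOC stood below BMM by less than the counting error. At chr11:96325402-96325601 mOC exceeded pOC by 28.6 points, with a Newcombe interval that also included 0 (-2.85 to 52.8). At the other region the interval of that step did not include 0.

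One region of Hoxb behaved differently. At chr11:96320602-96320801, in the spans of both Hoxb3 and Hoxb4, 93.8% of 64 reads were methylated in BMM (84.8 to 98.3), 60.3% of 58 in pOC (46.6 to 73.0) and 64.4% of 45 in mOC (48.8 to 78.1). Both RANKL-treated libraries were low, and it was listed in both comparisons with BMM, which share the BMM reads. The difference from BMM was 33.4 points in pOC (18.9 to 46.8; adjusted p = 0.00011, Fisher's exact test) and 29.3 points in mOC (14.2 to 44.4; adjusted p = 0.0041). The mOC level exceeded the pOC level by 4.10 points, with an interval of -14.5 to 21.9.

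Around the start of Hoxb4 and Mir10a, the region chr11:96317602-96317801 ended 466 bp before the Hoxb4 start and 216 bp before the promoter window printed above. Its levels were 61.2% of 98 reads in BMM, 39.3% of 84 in pOC and 66.7% of 123 in mOC. The region chr11:96317002-96317401 (14 cytosines) holds the whole Mir10a hairpin, and 69.3% of 137 reads were methylated there in pOC (60.9 to 76.9) against 97.3% of 74 in BMM (90.6 to 99.7; adjusted p = 8.1e-06, Fisher's exact test).

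For mOC against pOC the authors listed the 3′ part of that region, chr11:96317202-96317401, with 91.3% of 23 reads methylated in mOC (72.0 to 98.9) and 58.3% of 24 in pOC (36.6 to 77.9). It has 4 cytosines, and these are the 4 cytosines, on both strands, of 2 of the 3 CG printed in the hairpin. In both listings the pOC level was the lower one, and both draw on the same pOC library. Mir10b, the Hoxd gene with the same seed, was not overlapped by a region. The region chr2:74726402-74726601, 265 bp from its hairpin, had 94.7% of 19 reads methylated in mOC (74.0 to 99.9) and 45.8% of 24 in pOC (25.6 to 67.2).

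At the 3′ end of the Hoxb cluster, a region 4345 bp from Hoxb1, a hindbrain gene, at chr11:96361202-96361401 had 92.6% of 27 reads in BMM, 67.5% of 40 in pOC and 93.8% of 32 in mOC. It was the region farthest from a member gene among the 106 rows. The nearest region left out by the 5 kb limit lay 5792 bp from Hoxc12, at chr15:102944401-102944600, with 29.0% in pOC and 60.5% in BMM. For mOC against BMM the region nearest outside lay 6060 bp from Hoxd1, with 59.4% in mOC and 32.5% in BMM, and the farthest inside lay 631 bp from Hoxa9.

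Between Hoxb1 and Hoxb3 the levels were lower in pOC too. Inside Hoxb2, a gene of facial nerve patterning, chr11:96352402-96352601 had 24.4% of 45 reads in pOC and 52.3% of 44 in BMM. The region chr11:96350202-96350401 had 75% of 40 reads in BMM, 42.1% of 19 in pOC and 88.5% of 26 in mOC. At chr11:96348002-96348201, 72 bp from Hoxb3, only 3 of 16 reads (18.8%) were methylated in pOC, against 15 of 19 (78.9%) in BMM. These 3 regions overlap Hoxb3os, an RNA gene annotated beside Hoxb3, and the last, with 16 reads in pOC, is at the minimum depth of the tables.

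Over the whole Hoxb cluster, 24 regions were listed for mOC against pOC, all higher in mOC, with medians of 87.5% in mOC and 56.3% in pOC. Between Hoxb4 and Hoxb6, chr11:96312802-96313201 had 92.9% of 84 reads in BMM, 58.1% of 62 in pOC and 93.1% of 58 in mOC. At chr11:96291402-96291601, 1213 bp from Hoxb6, levels were 94.6% of 93 reads in BMM, 62.9% of 70 in pOC and 95.8% of 72 in mOC. At both regions BMM and mOC lay within 2 points of each other.

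Near Hoxb5, chr11:96302802-96303001 had 97.2% of 36 reads methylated in mOC and 69.7% of 33 in pOC, and chr11:96302202-96302401 had 91.2% of 68 in mOC and 60.5% of 43 in pOC. Hoxb8 blocks the maturation of myeloid progenitors when overexpressed. Inside its span, chr11:96280202-96280401 had 46.5% of 43 reads in BMM (31.2 to 62.3), 12.8% of 47 in pOC (4.83 to 25.7) and 37.2% of 43 in mOC (23.0 to 53.3). It had the lowest BMM level of the 15 Hoxb regions listed for pOC against BMM.

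The Hoxa cluster lies on the minus strand, and its listed regions ran from Hoxa2 to beyond Hoxa13. In the span of Hoxa2, which gives the second pharyngeal arch its identity, chr6:52162601-52163000 had 69.6% of 102 reads methylated in pOC (59.7 to 78.3) and 94.5% of 91 in BMM (87.6 to 98.2). Part of it, chr6:52162801-52163000, had 89.4% of 47 reads in mOC and 58.7% of 46 in pOC. Near Hoxa3, a gene of thymus and throat development, chr6:52167001-52167200 had 94.1% of 17 reads in BMM, 60% of 30 in pOC and 95.5% of 22 in mOC. Further into the Hoxa3 span, chr6:52180201-52180400 had 71.7% of 46 reads in BMM, 48.6% of 35 in pOC and 76.9% of 26 in mOC. At both, pOC was the low library, but the intervals of all 3 libraries overlapped one another. The Newcombe interval of each step excluded 0, at chr6:52180201-52180400 narrowly. There it was 1.82 to 42.2 points for pOC against BMM and 3.62 to 48.0 for mOC against pOC. The adjusted p for mOC against pOC there was 0.052 (Fisher's exact test).

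The longest Hox region was chr6:52192601-52193400, 800 bp and 36 cytosines in the Hoxa3 span, upstream of Hoxa4. There 69.5% of 200 reads were methylated in pOC (62.6 to 75.8) and 94.5% of 271 in BMM (91.0 to 96.9). The difference of 25 points (18.1 to 32.0) had an adjusted p of 1.3e-10 in Fisher's exact test, the lowest in Hoxa. The score test with each read counted once per strand gave an unadjusted p of 0.086. That test counts too few reads where they span only part of a region, as can happen over 800 bp. Most of it, chr6:52192801-52193400, was listed for mOC against pOC, with 94.9% of 138 reads in mOC (89.8 to 97.9) and 65.6% of 96 in pOC (55.2 to 75). The pOC library was again the low one, over the longest listed stretch of the clusters.

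Hoxa9 and Hoxa10 drive growth of blood progenitors, and Mir196b lies between them. At chr6:52229601-52229800 (13 cytosines), 281 bp from the Mir196b hairpin, 23 of 54 reads were methylated in BMM (42.6%, 29.2 to 56.8), 6 of 55 in pOC (10.9%, 4.11 to 22.2) and 26 of 60 in mOC (43.3%, 30.6 to 56.8). Its pOC level was the lowest of the 46 regions listed for pOC against BMM. At chr6:52231001-52231200, at the 3′ end of Hoxa10, 42.2% of 45 reads were methylated in pOC and 68.0% of 50 in BMM.

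The region chr6:52228001-52228200 lay 381 bp from the Hoxa9 promoter window, the next smallest distance after that of Hoxb4. It was listed for mOC against BMM alone, with 78.3% of 23 reads methylated in mOC (56.3 to 92.5) and 46.2% of 26 in BMM (26.6 to 66.6), 32.1 points higher in mOC (4.82 to 53.3; adjusted p = 0.045, Fisher's exact test). At the other end, Hoxa13, a gene of digits and hindgut, had chr6:52262801-52263000 in Hottip, an RNA gene known in human cells to help activate 5′ HOXA genes. Its levels were 62.9% of 116 reads in BMM, 33.7% of 86 in pOC and 58.1% of 74 in mOC.

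The Hoxc regions listed for pOC against BMM lay at Hoxc4, Hoxc6 and Hoxc9 with a median of 41 reads in each library, and their pOC levels ran from 12.2% to 28.2%. The largest difference was at chr15:102979001-102979200 in Hoxc9, a gene of thoracic motor neurons, with 5 of 27 reads methylated in pOC (18.5%) and 16 of 32 in BMM (50.0%). The lowest Fisher p was at chr15:102998801-102999000 in Hoxc6, with 19.0% of 84 reads in pOC (11.3 to 29.1) and 46.0% of 87 in BMM (35.2 to 57.0; adjusted p = 0.0011, Fisher's exact test).

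For mOC against pOC, 3 Hoxc regions were listed, all higher in mOC. The largest difference lay 3545 bp beyond Hoxc4, at chr15:103040401-103040600, with 63.6% of 22 reads in mOC and 33.3% of 36 in pOC. The only Hoxc region of mOC against BMM, chr15:103005001-103005200 in Hoxc6, was lower in mOC, at 23.7% of 38 reads (11.4 to 40.2) against 58.3% of 24 in BMM (36.6 to 77.9). No Hoxc position had reads from all 3 libraries in the tables.

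In Hoxd, the greatest difference for pOC against BMM lay 260 bp beyond the 3′ end of Hoxd1, a gene of pain-sensing neurons. At chr2:74765402-74765601 (8 cytosines), 11 of 45 reads were methylated in pOC (24.4%, 12.9 to 39.5) and 36 of 41 in BMM (87.8%, 73.8 to 95.9). The difference of 63.4 points (43.8 to 75.7; adjusted p = 1.8e-07 in Fisher's exact test) was the greatest of the 46. The adjoining bin, chr2:74765202-74765401, was listed for mOC against pOC with 77.8% of 36 reads in mOC and 56.0% of 25 in pOC, where the difference had an interval of -1.72 to 43.4 points. Farther out, chr2:74768402-74768601 had 49.2% of 63 reads in BMM, 15% of 40 in pOC and 39.0% of 41 in mOC.

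Hoxd3 acts in the formation of the first vertebra. In its span chr2:74729202-74729401 had 82.6% of 46 reads methylated in BMM, 48.6% of 35 in pOC and 70.6% of 34 in mOC. Inside Hoxd8, chr2:74707402-74707601 had 81.0% of 21 reads in BMM, 48.8% of 43 in pOC and 79.2% of 24 in mOC. In both regions pOC was lowest. In the Hoxd3 region mOC exceeded pOC by 22.0 points, with an interval of -1.06 to 42.0 (adjusted p = 0.097, Fisher's exact test). In the Hoxd8 region the same step was 30.3 points (5.97 to 48.7).

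Hoxd10 and Hoxd11, genes of the limb and lower spine, held the only Hox regions lower in mOC than in pOC. At chr2:74695002-74695201 in Hoxd10, 18 of 59 reads were methylated in BMM (30.5%, 19.2 to 43.9), 10 of 30 in pOC (33.3%, 17.3 to 52.8) and 1 of 25 in mOC (4%, 0.101 to 20.4). At chr2:74685602-74685801, in the spans of Hoxd10 and Hoxd11, 19 of 24 reads were methylated in BMM (79.2%, 57.8 to 92.9), 25 of 38 in pOC (65.8%, 48.6 to 80.4) and 7 of 19 in mOC (36.8%, 16.3 to 61.6). Fisher's exact test for mOC against pOC gave an adjusted p of 0.020 at the first and 0.066 at the other. Here mOC was the low library, while 2 neighbours in the same genes were higher in mOC than in pOC.

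Of these neighbours, chr2:74686602-74686801 had 74.1% of 54 reads in BMM, 40% of 50 in pOC and 69.4% of 36 in mOC. In Hoxd10, chr2:74690602-74691001 had 49.0% of 98 reads methylated in mOC (38.7 to 59.3) and 23.0% of 74 in pOC (14 to 34.2; adjusted p = 0.0034, Fisher's exact test). Part of it, chr2:74690802-74691001, had 51.2% of 41 reads in mOC and 25% of 28 in BMM. Regions higher and regions lower in mOC than in pOC thus stood side by side in Hoxd10.

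At the 5′ end of Hoxd, chr2:74677202-74677401 in Hoxd12 had 70.0% of 20 reads in mOC and 23.5% of 17 in pOC. Hoxd13, the digit gene at the end of the cluster, had 36.0% of 25 reads in pOC and 69.6% of 23 in BMM at chr2:74669602-74669801.

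In the step from pOC to mOC over all clusters, 48 of 50 Hox regions (96%) were higher in mOC, against 89.1% of the whole table, and 2 were lower. Median levels over the 50 were 80.9% in mOC and 49.5% in pOC, against 73.9% in mOC and 46.6% in pOC over the whole table. Fisher's exact test gave an adjusted p of 0.05 or less at 33 of the 50, against 64.8% of the whole table. The score test with each read counted once per strand gave an unadjusted p of 0.05 or less at 7 of the 50, against 19.1%, so the counts are near or below the background. By cluster, the medians were 89.4% in mOC and 59.5% in pOC for Hoxa (9 regions), 60.9% in mOC and 33.3% in pOC for Hoxc (3 regions), and 69.7% in mOC and 38.8% in pOC for Hoxd (14 regions, 12 of them higher). As between pOC and BMM, Hoxc and Hoxd lay below Hoxa and Hoxb in both libraries. Both steps rest on the same pOC library.

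Reads from all 3 libraries were deposited for 21 positions, 4 in Hoxa, 11 in Hoxb and 6 in Hoxd, since these were listed at the same ends in at least 2 tables. At 18 of them the pOC level was the low one in both steps, a shape that being listed in both directions fixes. Over these 18, the median level was 81.8% in BMM (42.6 to 100), 48.6% in pOC (10.9 to 67.5) and 80.2% in mOC (37.2 to 95.8). The other 3 are the Hoxb3 and Hoxb4 region that was low in both RANKL-treated libraries and the 2 Hoxd10 regions that were low in mOC.

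The listing also bears on how close mOC lay to BMM, without fixing it. Both libraries had to lie at least 20 points above the same pOC level, and the 18 positions were not listed for mOC against BMM. The closeness of mOC to BMM was thus partly set by the listing. Over the 18 positions, mOC minus BMM had a median of -1.31 points, and ran from -13.8 to 13.5. It was within 10 points at 13 of them, below BMM at 10 and above it at 8. The Newcombe interval of the difference included 0 at 17 of 18, and the exception was the Hoxb3 region with 100% in BMM, where mOC was lower by 10.4 points (3.95 to 17.0). Over 78666 positions of the same shape in the whole series the median was -1.05 points and the interval included 0 at 95.3%, so the Hox positions lay near the background. An interval that includes 0 does not show that the levels were equal, and several of these were over 30 points wide.

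**Figure D4:**
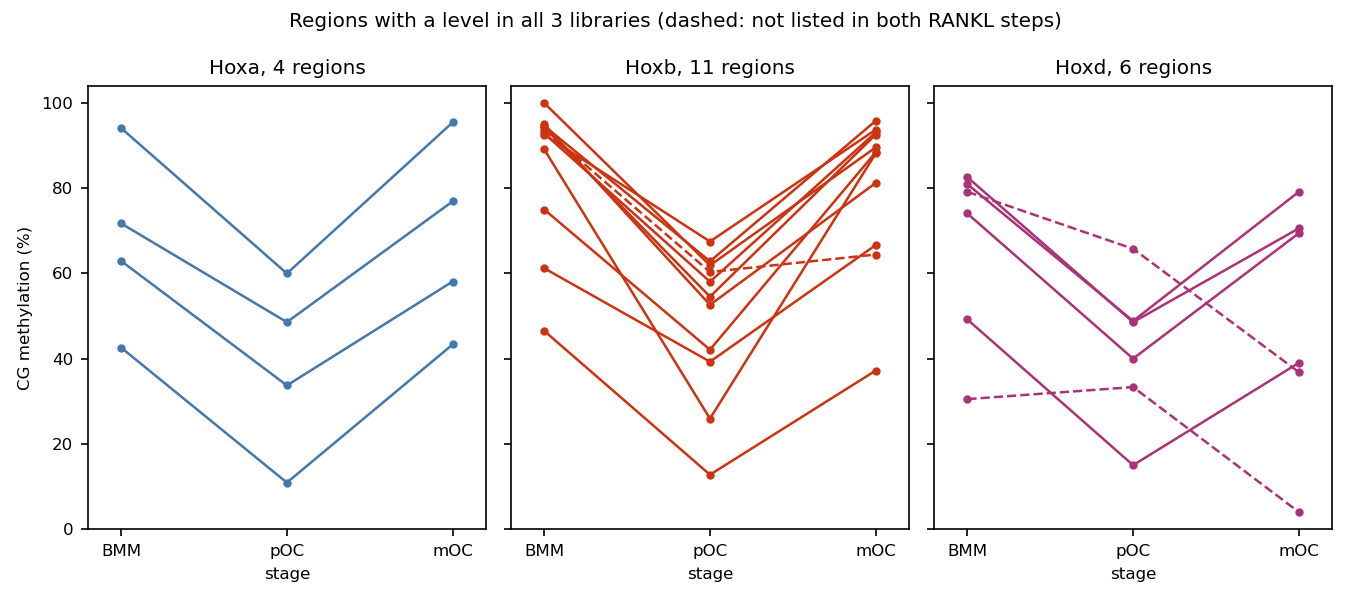
CG methylation (%) at the 21 Hox positions with reads from BMM, pOC and mOC, with 1 line per position and 1 panel per cluster that has such positions. Solid lines are the 18 positions listed in both RANKL steps, with medians of 81.8% in BMM, 48.6% in pOC and 80.2% in mOC, and dashed lines are the 3 others.

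Over the whole interval, mOC against BMM, 10 Hox regions were listed, 5 higher and 5 lower in mOC, against 41.1% higher and 58.9% lower in the whole table. Both Hoxa regions were higher, 1 of 2 in Hoxb, 0 of 1 in Hoxc and 2 of 5 in Hoxd. The median levels were 57.8% in mOC and 53.6% in BMM. All 10 had an adjusted p of 0.05 or less in Fisher's exact test, as did 93.8% of the whole table. In the score test with each read counted once per strand, 1 of the 10 had an unadjusted p of 0.05 or less, against 16.5% of the table. That 1 was the Hoxd10 and Hoxd11 region with 36.8% in mOC and 79.2% in BMM, the greatest difference of the 10 at 42.3 points (12.7 to 63.5).

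The other regions of this comparison were as follows. In the Hoxa3 span near Hoxa6, chr6:52210001-52210400 had 90.7% of 86 reads in mOC (82.5 to 95.9) and 70.0% of 90 in BMM (59.4 to 79.2), the lowest Fisher p in Hoxa (adjusted p = 0.0068), and its first 200 bp had 67.3% of 52 reads in pOC. In Hoxb3, chr11:96314402-96314601 had 72.1% of 61 reads in mOC and 50.6% of 77 in BMM.

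In Hoxd3 the direction was mixed. At chr2:74748802-74749001, 531 bp from its span and in the RNA gene Haglr, 65.4% of 26 reads were methylated in mOC (44.3 to 82.8) and 31.8% of 44 in BMM (18.6 to 47.6). At chr2:74714602-74714801 the levels were 31.8% of 66 reads in mOC (20.9 to 44.4) and 56.5% of 69 in BMM (44.0 to 68.4; adjusted p = 0.019, Fisher's exact test). Regions inside a gene and just beyond it thus differed in opposite directions between these libraries.

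**Figure D5:**
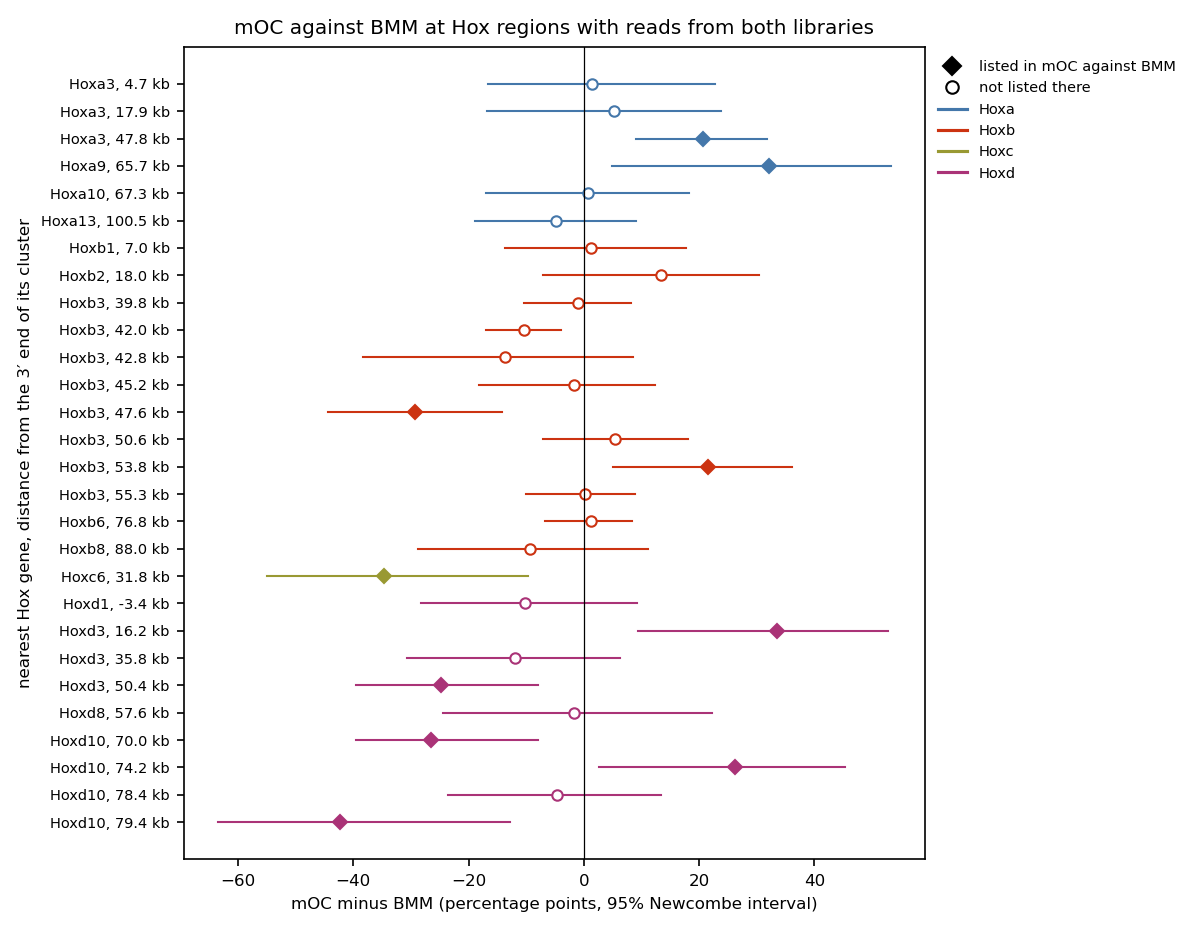
Difference of CG methylation, mOC minus BMM in percentage points with 95% Newcombe intervals, at the 28 Hox positions with reads from both libraries, named by the nearest Hox gene and the distance from the 3′ end of its cluster. Filled diamonds are the 10 positions listed for mOC against BMM, 5 on each side of 0. Open circles are the 18 listed only in the RANKL steps, which lie around 0. Listing required a difference of at least 20 points, so the gap between diamonds and circles follows in part from that rule.

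Promoters could be placed for 22 Hox genes, which have 24 RefSeq windows of 300 bp (250 bp before to 50 bp after a start). No listed region overlapped any of the 24 in any of the 3 tables. Over all 32815 windows, 2.94% were overlapped by a region of pOC against BMM, 0.744% by one of mOC against BMM and 2.53% by one of mOC against pOC, shares at which 24 windows are too few to read anything from 0. Hox windows had a median of 14.5 CG (4 to 45), against 7 over all windows, and 17 of 24 (70.8%) had 10 or more, against 43.4%. The third closest approach was at a start of Hoxd11, whose window lay 472 bp from chr2:74681402-74681601, with 44.7% of 85 reads in pOC and 65.7% of 102 in BMM.

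Genes that act with the Hox genes were counted in the same way, by listed regions within 5 kb. The share of all protein-coding genes with such a region, against which each list is to be read, was 82% in each of the RANKL steps, pOC against BMM and mOC against pOC, and 57.2% in the comparison of mOC with BMM. Longer genes can hold more regions, and a region near several genes of a list counts for each of them. All 11 genes of the TALE class, whose proteins bind DNA together with Hox proteins, had a region for pOC against BMM, with 14 regions higher and 226 lower in pOC. For mOC against BMM it was 8 of 11 genes, with 26 higher and 30 lower, and for mOC against pOC it was 11 of 11, with 195 higher and 18 lower. Pbx3, a partner of Hoxa9 in leukaemia, had 35.0% of 20 reads in pOC against 89.3% of 28 in BMM at chr2:34303402-34303601.

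Of 24 Trithorax and Polycomb genes, which keep Hox genes on or off, 23 had a region for pOC against BMM (9 higher, 287 lower), 17 for mOC against BMM (16 higher, 41 lower) and 20 for mOC against pOC (213 higher, 12 lower), beside the 82%, 57.2% and 82% of protein-coding genes in those comparisons. Mllt3, a reader of acylated histones and fusion partner of Kmt2a, had 94.7% of 19 reads in BMM, 17.6% of 17 in pOC and 91.7% of 24 in mOC at chr4:87889403-87889602. Jarid2, which recruits Polycomb repressive complex 2, had 89.0% of 82 reads in BMM, 22.5% of 71 in pOC and 86.2% of 58 in mOC at chr13:44893204-44893403. These are the positions of greatest difference in the genes with the most regions, and at both pOC was the lowest library.

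Of 19 RNA genes inside the clusters, 15 had a region for pOC against BMM (0 higher, 28 lower), 6 for mOC against BMM (5 higher, 2 lower) and 15 for mOC against pOC (35 higher, 0 lower), largely the Hox regions given above. The 9 ParaHox and Hox-linked homeobox genes, relatives such as Cdx2 and Evx2, had a region at 6 genes for pOC against BMM (0 higher, 10 lower), at 5 for mOC against BMM (4 higher, 3 lower) and at 4 for mOC against pOC (7 higher, 1 lower). All 10 genes flanking the clusters, such as Skap2 and Mtx2, had a region in both RANKL steps, with 7 higher and 182 lower in pOC against BMM and 140 higher and 6 lower in mOC against pOC. For mOC against BMM they had a region at 7 of 10 genes, with 14 higher and 29 lower. In both RANKL steps the direction in each list was that of most regions in the whole tables. For mOC against BMM the RNA and ParaHox lists had more regions higher than lower, while the other 3 lists had more lower, as 58.9% of the whole table.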

How the data were processed

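Whole-genome bisulfite libraries of BMM, pOC and mOC were used, 1 each. Per the file headers, the authors deposited, for each pair of libraries, CG regions with counts of methylated and of all reads summed over cytosines, the cytosine number and a p-value. Not given in the sources used here are the bisulfite aligner, the region caller and the test behind the deposited p-value. The submitters' processing notes name GRCm38, FastQC, HISAT2 and StringTie without role or version. Table headings give hours, and each was assigned to the stage with that time of RANKL.

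Listed regions differ by at least 20 points, which sets the smallest difference that could be seen. The deposited p-value reaches 0.05 in both comparisons with BMM and 0.0917 in mOC against pOC. In 259 of 259 regions lying inside a RefSeq promoter window, the cytosine number equalled the CG cytosines of both strands.

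Levels were computed from the counts, with Clopper-Pearson and Newcombe intervals (Python 3.11.15, scipy 1.17.1, pandas 2.3.3). A two-sided Fisher's exact test was run on every region with Benjamini-Hochberg adjustment over its table. In the score test the counts of a region were scaled to the mean reads per cytosine of each strand. This stands for each read counted once per strand and region, and holds only where reads span the whole region. Fisher's exact test and the intervals were checked on simulated counts. These were drawn as independent, so the check could not show the effect of reads covering several cytosines. A minimum of 10 reads removed no region. Alternatives were the gene span or 20 kb as window, 20 or 30 reads, deposited p-values of at most 0.001 or 0.05, a difference of 30 points, and other rules for shared regions. The text names, per cluster and comparison, the region of greatest difference in each direction and that of lowest p, regions with reads from all libraries, the genes with the most and with no regions, and regions nearest a start; other regions were added after their values were seen. Of 20 RNA genes listed, Haglros had no match. The values of 1 partner gene are not reported here. Members and lists were chosen with earlier results of these data known.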

Additional observations from a re-analysis of the deposited data

How the results depend on the processing

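No paired analysis was possible because each stage has 1 library. Of 89 alternatives, 55 left their result within its limits and 34 moved it. Reversal of a direction was not assessed. For mOC against BMM the share higher, 50%, was 37.5% in gene spans and 59.1% within 20 kb. The listed Hox regions for pOC against BMM (46) became 11 at a deposited p of at most 0.001, 25 at 30 points or more and 9 with reads counted once per strand. For mOC against BMM (10) they became 22 within 20 kb, 4 at 30 reads, 0 at p of at most 0.001, 4 at 30 points and 1 with reads counted once per strand. For mOC against pOC (50) they became 33 in gene spans, 26 at 30 reads, 5 at p of at most 0.001, 18 at 30 points and 7 with reads counted once per strand; the share higher was 100% at 30 reads, at p of at most 0.001 and at 30 points. Hox genes with a region became 17 (spans) and 11 (p of at most 0.001) for pOC against BMM, 7 (spans), 28 (20 kb), 5 (30 reads) and 0 (p of at most 0.001) for mOC against BMM, and 16 (spans) and 6 (p of at most 0.001) for mOC against pOC. Regions of mOC against BMM that overlap one of mOC against pOC were 4, and 2 with identical ends. At p of at most 0.001 mOC against BMM left 0 regions, so no share higher could be given. Depth limits single regions, since the Hox levels from 16 reads had intervals over 40 points wide, and 1 library a stage leaves the spread between cultures unmeasured.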
